A study of Mus musculus with 24 samples.

Results

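The miRNAs described are mmu-miR-219a-5p, mmu-miR-219a-2-3p, mmu-miR-338-3p and mmu-miR-338-5p, which were chosen by name as miRNAs of oligodendrocytes and make up 4 of the 1881 mouse miRNAs on the array. Of these 4 members, 3 were detected on at least 1 of 24 single-color arrays, and mmu-miR-338-5p was detected on none. The arrays measured 8 tissues of male C57BL/6J mice, with 1 array for each tissue in each of 3 lens groups. The tissues were cornea, iris, lens, retina, RPE/choroid (retinal pigment epithelium with choroid, which the labels call choroid), sclera and the brain regions labelled SCN and LGN, abbreviations that in vision research usually stand for the suprachiasmatic and the lateral geniculate nucleus. Mice of the normal group, labelled control, wore no lens. Mice of the lens-induced group wore a −30 D lens, which induces myopia, on the right eye from 3 weeks of age for 3 weeks, and the group labelled 0D lens wore a lens of 0 D, for which age and duration are not given in the sources used here. For the ocular tissues of the normal and −30 D groups the RNA of 3 mice was pooled on each array, while pooling in the 0 D group and in the brain regions, and the side and the dissection of these regions, are not given in the sources used here. The 8 arrays of a lens group shared a slide. A lens effect therefore cannot be told apart from a slide effect, whereas tissues can be compared within each slide. The normal and 0 D slides were scanned on the same day, the −30 D slide on another day.

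Oligodendrocytes are the glial cells that wrap axons of the central nervous system in myelin. miR-219 and miR-338 rise when oligodendrocyte precursors stop dividing and mature, and they repress genes that keep the precursors immature. The mouse retina holds axons of ganglion cells that have no myelin until they have left the eye, and the cornea, iris, lens and sclera hold no oligodendrocytes. Neither miRNA belongs to oligodendrocytes alone, since both have also been described in neurons, and miR-219 is known as a clock-regulated miRNA of the suprachiasmatic nucleus.

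The mature sequences show which signals can be told apart. In the RefSeq table of build GRCm38.p6, 3 of the 4 members have a mature sequence, printed 5′ to 3′ with the seed, bases 2 to 8, in capitals. mmu-miR-219a-2-3p has no mature entry there.

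mmu-miR-219a-5p: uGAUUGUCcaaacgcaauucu

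mmu-miR-338-3p: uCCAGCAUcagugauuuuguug

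mmu-miR-338-5p: aACAAUAUccuggugcugagug

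The seeds of these 3 miRNAs differ from each other. mmu-miR-219a-5p is produced with an identical sequence from 2 hairpins, Mir219a-2 (chr2:29845631-29845727, minus strand, within the span of Cercam) and Mir219a-1 (chr17:34024983-34025092, minus strand, next to Ring1), so that its signal is the sum of both. The 3p arm separates them, since mmu-miR-219a-2-3p is cut from Mir219a-2 and mmu-miR-219a-1-3p from Mir219a-1. Both arms of miR-338 come from Mir338 (chr11:120014765-120014862, minus strand), a hairpin within the span of Aatk. The hairpins of Mir219a-2 and Mir338 are shown with the mature arms that the table annotates in capitals, because the readout turns on which arm of each hairpin was seen.

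Mir219a-2: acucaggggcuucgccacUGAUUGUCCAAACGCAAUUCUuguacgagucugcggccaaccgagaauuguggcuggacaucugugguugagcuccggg

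Mir338: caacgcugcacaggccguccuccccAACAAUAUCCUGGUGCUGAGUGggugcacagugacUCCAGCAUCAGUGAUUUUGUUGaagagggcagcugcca

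A miRNA was taken as detected where at least 1 of its probes had a signal above 3 times its error, and its level is the sum of those probes, given as scaled signal after equalizing the 75th percentile of the arrays. The error after ± beside a level of a single array is that of the probes only. Between 6.86% and 13.2% of the 1881 miRNAs were detected on an array. Levels compare the same miRNA between tissues, not different miRNAs, since probes differ in brightness.

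**Figure D1:**
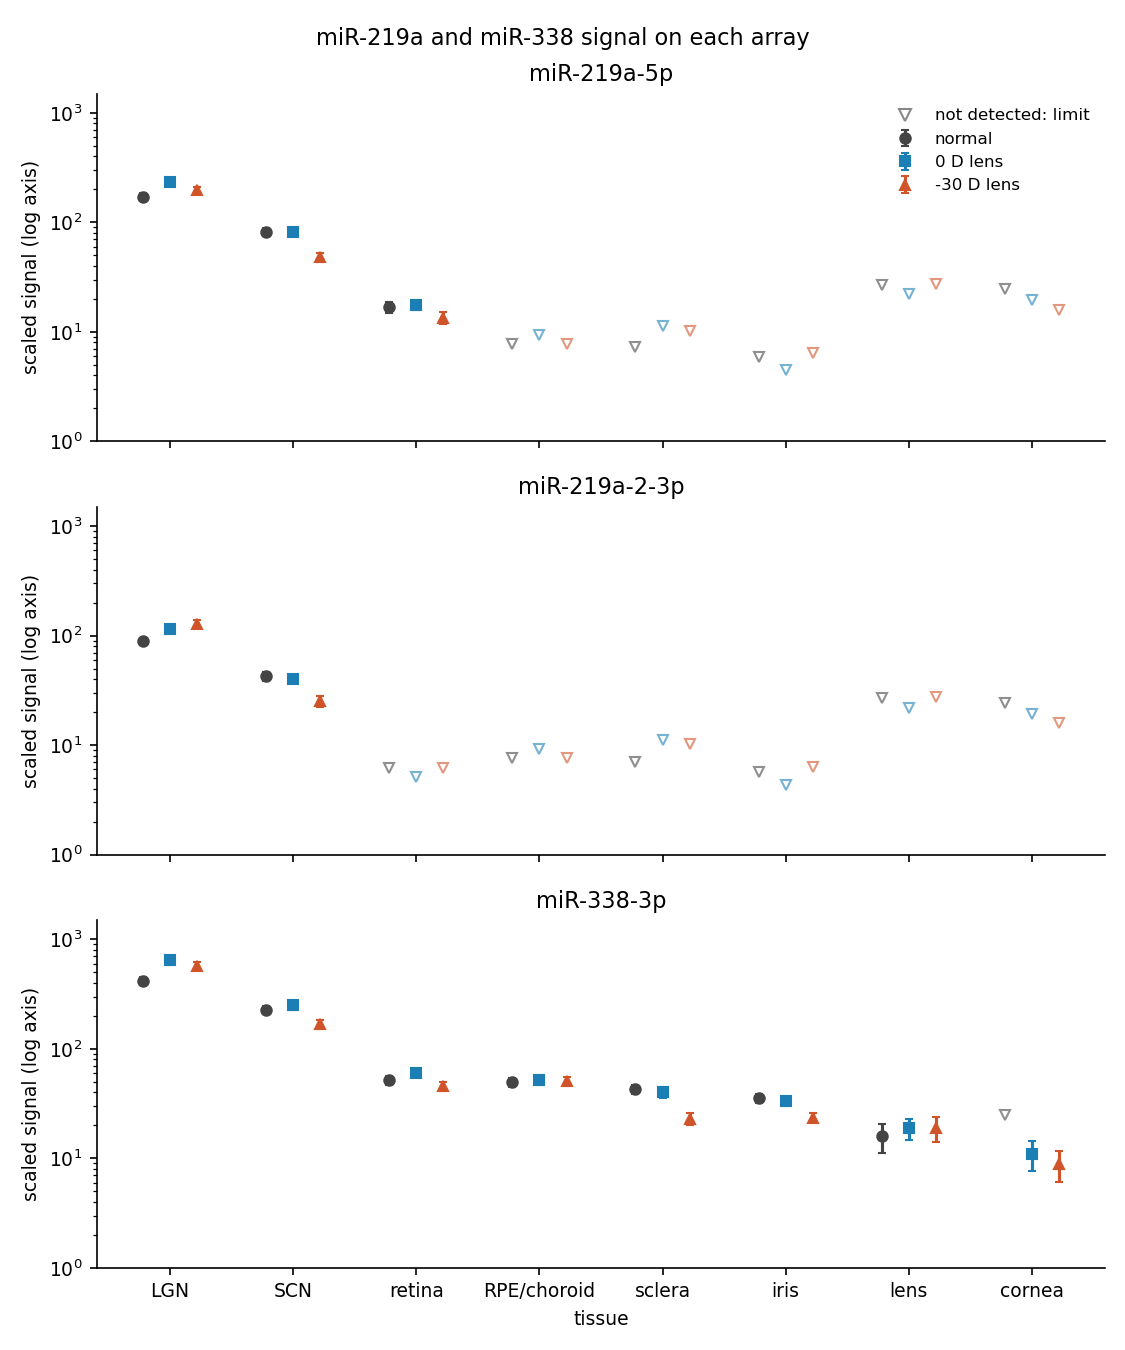
Scaled signal (log axis) of mmu-miR-219a-5p, mmu-miR-219a-2-3p and mmu-miR-338-3p on the 24 arrays, by tissue and lens group. Filled symbols are detected signals with the error of the probes, and open triangles are detection limits of arrays without detection. Among detected signals the LGN arrays are highest and the SCN arrays next in each panel, and mmu-miR-219a-2-3p is detected on the 6 brain arrays only.

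mmu-miR-219a-5p, the arm that carries the miR-219 seed, was detected on 9 arrays, those of the LGN, the SCN and the retina. In the LGN its scaled signal was 171.0 ± 12.6 in the normal, 233.8 ± 17.2 in the 0 D and 196.6 ± 14.5 in the −30 D group. In the SCN it was 82.0, 81.2 and 47.9, and in the retina 16.8, 17.7 and 13.4, in the same order. The 3 ranges did not overlap, and the means over the 3 arrays were 200 ± 31.6 in the LGN, 70.4 ± 19.4 in the SCN and 16.0 ± 2.25 in the retina (SD, n = 3 arrays, 1 from each lens group). On the 15 arrays without detection the brightest probe stood between 0.557 and 2.98 errors, with a median of 1.63, so that several of these arrays came close to the limit of 3. The nearest were the normal sclera (2.98), the 0 D iris (2.96) and the normal iris (2.81).

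mmu-miR-219a-2-3p, the opposite arm of the Mir219a-2 hairpin shown above, was detected on the 6 brain arrays and on no ocular array. Its scaled signal was 88.6, 115.4 and 128.0 in the LGN of the normal, 0 D and −30 D groups, and 42.4, 40.1 and 25.1 in the SCN. Every LGN array was above every SCN array, with means of 111 ± 20.1 and 35.9 ± 9.39 (SD, n = 3 arrays each). On the other 18 arrays the brightest probe was between −0.725 and 0.658 errors, which is at the level of the background. The detection limits of the retina arrays were 5.08 to 6.21 in scaled signal, those of the lens arrays 21.9 to 27.4.

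mmu-miR-338-3p, which has its own targets in oligodendrocyte precursors, was detected on 23 arrays, in every tissue. In the LGN its scaled signal was 418 in the normal, 643 in the 0 D and 573 in the −30 D group. In the SCN it was 227, 251 and 168. The retina followed with 52.0, 60.4 and 45.4 and the RPE/choroid with 49.9, 51.5 and 50.7. Lower signals were found in the sclera, with 42.8, 40.1 and 22.8, and in the iris, with 35.2, 33.5 and 23.4. The lens arrays were at 15.9, 18.8 and 19.0. The cornea had 11.0 ± 3.39 with the 0 D and 8.89 ± 2.79 with the −30 D lens, and no detection in the normal group.

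The means over the 3 arrays gave the order LGN (545 ± 115), SCN (215 ± 42.6), retina (52.6 ± 7.51), RPE/choroid (50.7 ± 0.804), sclera (35.2 ± 10.8), iris (30.7 ± 6.36) and lens (17.9 ± 1.72), all with SD and n = 3. The ranges of retina and RPE/choroid overlapped, as did those of sclera and iris, so that neither pair was ordered beyond its spread. The LGN, the SCN, the RPE/choroid and the iris were each apart from the next tissue below. mmu-miR-338-3p has 2 probes, and on 8 of the 23 arrays (2 of the sclera, 1 of the iris, 3 of the lens and 2 of the cornea) only the brighter passed the limit. Summing both probes gave 45.4 and 24.7 in the sclera with the 0 D and −30 D lens and 26.3 in the iris with the −30 D lens.

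mmu-miR-338-5p, the other arm of Mir338, was not detected on any array, with its brightest probe between −1.20 and 1.11 errors. The 5 relatives on the array (mmu-miR-219a-1-3p, both arms of miR-219b and both arms of miR-219c) were likewise not detected on any of the 24 arrays. miR-219b and miR-219c are annotated on the opposite strand of Mir219a-2 and Mir219a-1, and mmu-miR-219b-3p is complementary to all 21 bases of mmu-miR-219a-5p. mmu-miR-3065-5p, from the opposite strand of Mir338, is complementary to 21 consecutive bases of mmu-miR-338-3p and was detected on 0 arrays.

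Differences between tissues were tested with limma over the 352 miRNAs detected on at least 3 arrays, with tissue and lens group as terms, after values below 9.93 in scaled signal and undetected values had been set to that common floor. Log2 differences are given ± SE with adjusted p-values over all 352. The 3 arrays of a tissue differ in lens group. For the 0 D group and the brain regions the number of mice behind an array is not given. The p-values therefore measure the spread between arrays after a lens effect shared by all tissues. That spread is pooled over the arrays of all tissues in the fit. Undetected arrays share the floor value, which holds for 15 arrays of mmu-miR-219a-5p and 18 of mmu-miR-219a-2-3p. For these miRNAs the SE and p-values do not measure the spread among detected arrays alone and can understate it. mmu-miR-338-5p, detected on no array, was not among the tested miRNAs.

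Both brain regions carried more of the 3 detected members than the retina. In LGN and SCN against retina, mmu-miR-219a-5p was higher by a log2 difference of 2.88 ± 0.13 (adjusted p = 7.3e-12) and mmu-miR-338-3p by 2.69 ± 0.17 (adjusted p = 5.79e-10). mmu-miR-219a-2-3p was also called higher (adjusted p = 2.87e-11), but the retina side is a limit, so that its level was at least 18.9-fold higher in the LGN and at least 6.05-fold higher in the SCN. All 3 tested members were called higher, where 29.8% of all 352 miRNAs were. Their median log2 difference was 2.69, that of all tested miRNAs 0. Within the slides the ratio of LGN to retina was 10.2, 13.2 and 14.6 for mmu-miR-219a-5p and 8.05, 10.6 and 12.6 for mmu-miR-338-3p (normal, 0 D and −30 D), and that of SCN to retina was 4.89, 4.58 and 3.57 and 4.36, 4.15 and 3.69. By cell types, the brain arrays nearly lacked the photoreceptor and sensory cluster miR-183, miR-96 and miR-182, whose summed scaled signal was 0 to 8.21 there and 14498 to 16170 in the retina. Of 6 listed neuronal miRNAs 5 were called higher in the brain than in the retina, among them mmu-miR-128-3p (3.34 ± 0.23) and mmu-miR-137-3p (3.07 ± 0.07), and mmu-miR-124-3p was lower (−2.69 ± 0.38). The part of neuron content in the difference of the members between brain and retina was not tested. Fewer cells of a type and less miRNA per cell cannot be told apart in such tissue samples.

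**Figure D2:**
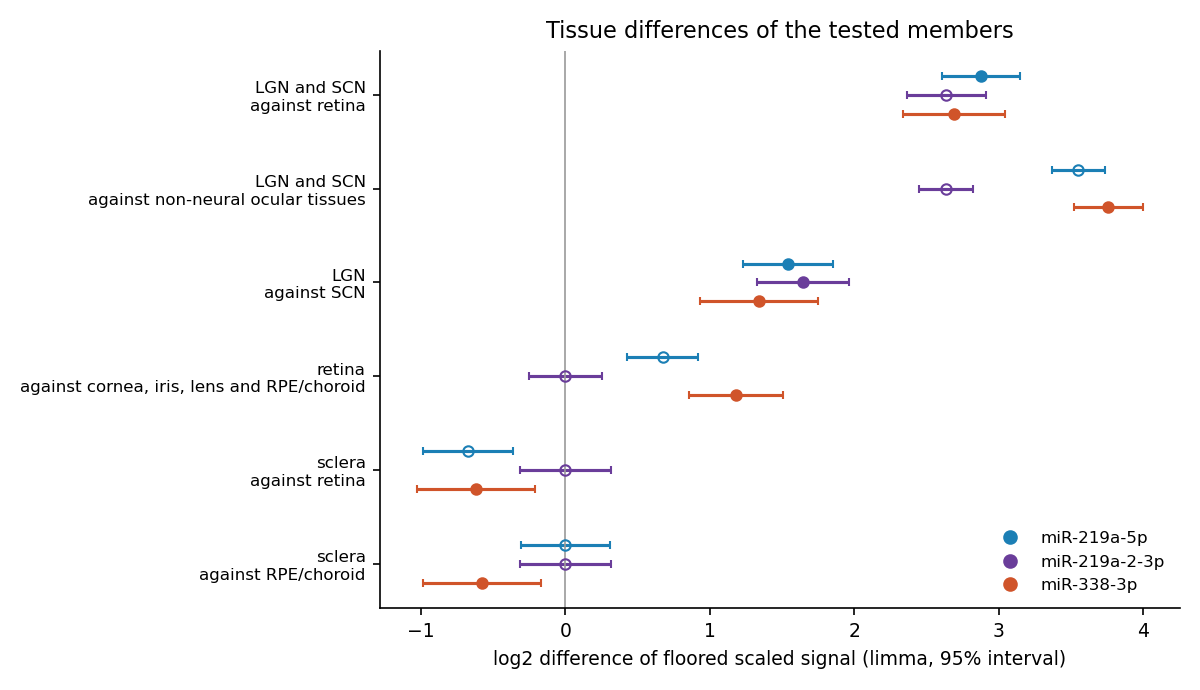
Log2 differences of floored scaled signal between tissues for the 3 tested members, with 95% intervals from limma (x axis) for 6 comparisons (y axis). Open symbols mark differences in which at least 1 side was not detected on any array, so that the value depends on the common floor. The brain regions are above the retina and the LGN above the SCN for all 3 members.

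Against the non-neural ocular tissues (cornea, iris, lens, RPE/choroid and sclera), mmu-miR-338-3p was higher in LGN and SCN by 3.76 ± 0.11 (adjusted p = 2.5e-14). mmu-miR-219a-5p (adjusted p = 1.83e-15) and mmu-miR-219a-2-3p (adjusted p = 9.28e-14) were also called higher, though no array of these tissues detected them. Their mean level in LGN and SCN was at least 10.0-fold and 5.38-fold above the detection limits averaged over these tissues. These bounds do not hold for each tissue. For mmu-miR-219a-2-3p the limits were 4.35 to 6.37 in the iris but 21.9 to 27.4 in the lens. Its −30 D SCN signal of 25.1 was below the limit of the −30 D array of the lens tissue (27.4). Over the alternative settings the differences ranged from 2.31 to 4.31 for mmu-miR-338-3p, from 1.77 to 10.19 for mmu-miR-219a-5p and from 1.35 to 9.27 for mmu-miR-219a-2-3p. Again 3 of 3 tested members were called higher, with 35.8% of all tested miRNAs.

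The LGN carried more of these miRNAs than the SCN. The log2 difference was 1.65 ± 0.15 for mmu-miR-219a-2-3p (adjusted p = 1.26e-07), 1.54 ± 0.15 for mmu-miR-219a-5p (adjusted p = 2.14e-07) and 1.34 ± 0.19 for mmu-miR-338-3p (adjusted p = 2.33e-05). All 3 tested members were called higher in the LGN, where 6.82% of the 352 miRNAs were. They stood at ranks 2, 3 and 4 of all 352, below mmu-miR-34a-5p with 1.87 ± 0.12. With the LGN and SCN arrays alone in the fit, 2.30 degrees of freedom were left. The SE of the members, in the order above, was then 0.35, 0.26 and 0.24, against 0.15, 0.15 and 0.19 with all tissues. The adjusted p was 0.109, 0.0785 and 0.0842 and no member passed. In addition, 3 arrays against 3 cannot reach an exact two-sided p below 0.1. The LGN was higher than the SCN in all 3 slides, yet by different amounts: the ratio of mmu-miR-219a-5p was 2.09 in the normal, 2.88 in the 0 D and 4.10 in the −30 D group, that of mmu-miR-219a-2-3p was 2.09, 2.88 and 5.10, and that of mmu-miR-338-3p was 1.85, 2.57 and 3.42.

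Neuronal miRNAs did not share this difference as a group. Of the 6 listed, mmu-miR-128-3p was higher in the LGN (0.74 ± 0.26, adjusted p = 0.0376), whereas mmu-miR-137-3p (−2.04 ± 0.08, adjusted p = 3.24e-12) and mmu-miR-132-3p (−0.50 ± 0.09, adjusted p = 2.01e-04) were lower, and mmu-miR-124-3p (0.41 ± 0.44, adjusted p = 0.77) and both arms of miR-9 did not pass. The part of neuron content in the difference of the members was not tested.

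**Figure D3:**
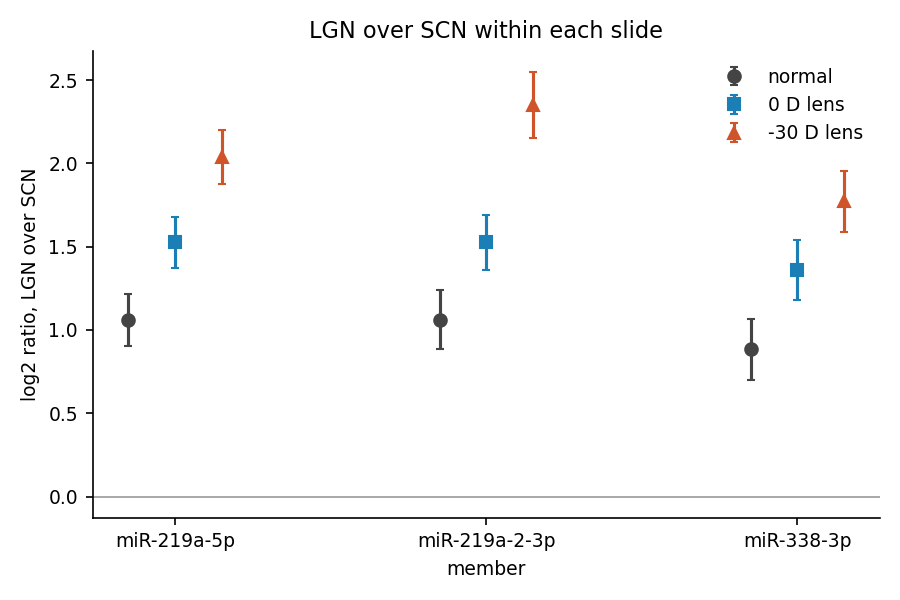
Log2 ratio of LGN to SCN (y axis) for the 3 detected members (x axis) within each slide, with the error of the probes of both arrays. All 9 ratios are above 0, and for each member the −30 D slide has the highest and the normal slide the lowest ratio.

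Within the eye, the retina held mmu-miR-219a-5p at a low level and mmu-miR-338-3p at a level like that of the RPE/choroid. Against cornea, iris, lens and RPE/choroid together, the retina was called higher for mmu-miR-338-3p, by 1.18 ± 0.15 (adjusted p = 4.13e-06), and for mmu-miR-219a-5p, by 0.67 ± 0.11 (adjusted p = 8.6e-05), which makes 2 of 3 tested members, with 27.3% of all tested miRNAs. For mmu-miR-219a-5p the value is set by the floor. For mmu-miR-338-3p the floor enters through the cornea, where the normal array was not detected and the −30 D signal of 8.89 was under 9.93. mmu-miR-219a-2-3p, detected in none of these tissues, was called lower in the retina with normexp background correction (−0.88) and with undetected arrays at their lowest detected signal (−1.22), and higher in the sclera than in the retina under the same settings (0.63 and 1.03). These calls compare background signals or the lowest signals of the arrays. They measure no difference in the level of this miRNA. Measured against detection limits, mmu-miR-219a-5p in the retina was at least 2.87-fold above the iris, 1.92-fold above the RPE/choroid and 1.68-fold above the sclera. The limits of the lens arrays (21.99 to 27.5) and of the cornea arrays (16.0 to 24.4) exceeded or overlapped the retina signals of 13.4 to 17.7, so that no fold can be given for these tissues. For mmu-miR-338-3p the ratio of retina to RPE/choroid was 1.04, 1.17 and 0.896 in the 3 slides.

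The RPE/choroid and sclera arrays also contained retinal miRNAs. The summed signal of miR-183, miR-96 and miR-182 was 813 to 1436 in the RPE/choroid and 441 to 1094 in the sclera, 20.5 to 32.8 in the iris, 131 to 427 in the lens and 214 to 244 in the cornea. Their part in the mmu-miR-338-3p signal of these tissues was not tested.

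In the sclera, mmu-miR-338-3p was lower than in the retina by a log2 difference of −0.62 ± 0.19 (adjusted p = 0.0108), and mmu-miR-219a-5p was called lower (−0.67 ± 0.15, adjusted p = 7.85e-04) with all 3 sclera arrays at the floor. These are 2 of 3 tested members, with 29.0% of all tested miRNAs. Against the RPE/choroid, mmu-miR-338-3p was lower in the sclera by −0.58 ± 0.19 (adjusted p = 0.0423), 1 of 3 tested members, with 9.94% of all tested miRNAs. This call was lost without the −30 D slide, where the difference was −0.29 ± 0.15 (adjusted p = 0.308), and the ratio of RPE/choroid to sclera was 1.17 and 1.28 in the normal and 0 D slides against 2.22 in the −30 D slide. It was also lost without the 0 D slide (adjusted p = 0.239), where the difference was −0.69 ± 0.31. The call of mmu-miR-338-3p against the retina was lost without the 0 D slide (adjusted p = 0.142).

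The proportion between members on the same array does not depend on scaling. Over the 6 brain arrays the signal of mmu-miR-219a-2-3p was 0.494 to 0.651 of that of mmu-miR-219a-5p. On the 3 retina arrays the detection limit of mmu-miR-219a-2-3p was 0.370, 0.287 and 0.456 of mmu-miR-219a-5p, so that each retina array lay below each brain array even at its limit. An exact two-sided permutation test of 6 against 3 arrays gave p = 0.0238, the smallest value it can give, and 0.0952 after adjustment over the 4 comparisons of such ratios. These ratios were chosen after the values had been seen, and the 3 retina values are limits. The p-value therefore restates a separation already seen and is no independent test. The permutation also took the LGN and SCN arrays as exchangeable and did not keep the slides together. The signal of mmu-miR-338-3p relative to mmu-miR-219a-5p was 2.45 to 2.92 in the LGN, 2.77 to 3.50 in the SCN and 3.10 to 3.41 in the retina, where the brain and retina arrays overlapped (exact permutation p = 0.143, adjusted p = 0.267).

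**Figure D4:**
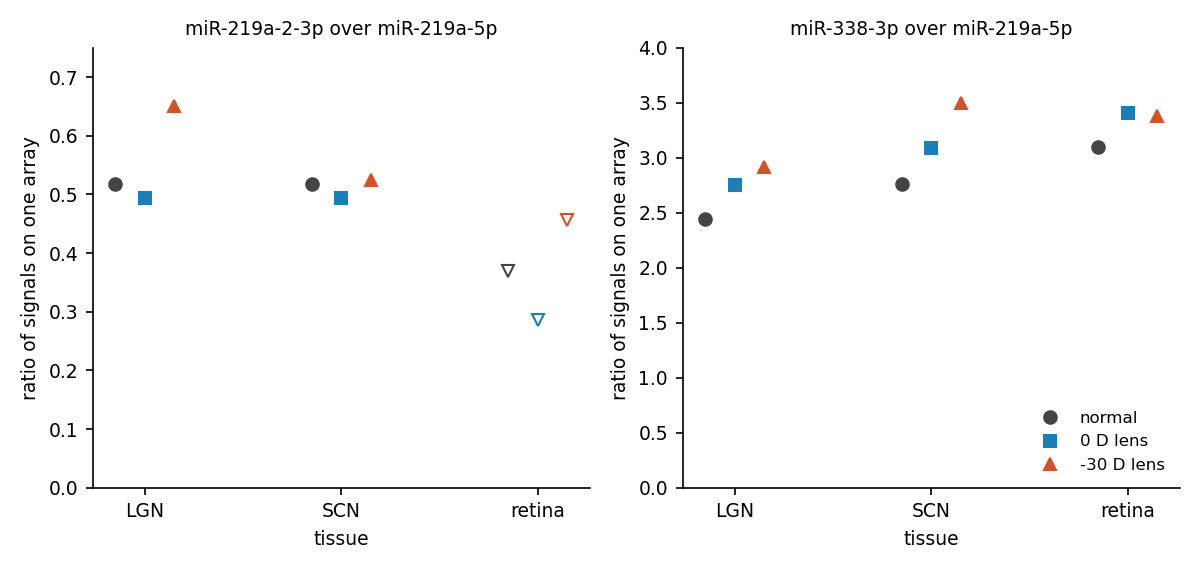
Ratio of the signals of 2 members on the same array (y axis) in LGN, SCN and retina (x axis), by lens group. Open triangles stand for the detection limit of mmu-miR-219a-2-3p over the signal of mmu-miR-219a-5p, at 0.287 to 0.456, below the 0.494 to 0.651 of the brain arrays. The ratio of mmu-miR-338-3p to mmu-miR-219a-5p in the retina lies within the range of the brain arrays.

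No effect of the lens that tissues shared passed the test. With the −30 D lens against normal the log2 difference over the 8 tissues was −0.11 ± 0.09 for mmu-miR-219a-5p, −0.03 ± 0.09 for mmu-miR-219a-2-3p and −0.17 ± 0.12 for mmu-miR-338-3p, whose 95% interval runs from −0.42 to 0.08. Of the 3 tested members 0 were called by limma, with 0.00% of all tested miRNAs (25 of 352 at an unadjusted p under 0.05). With the 0 D lens the differences were 0.06 ± 0.09, 0.04 ± 0.09 and 0.16 ± 0.12, and 0 of 3 members were called, with 0.568% of all tested miRNAs. The direction for mmu-miR-338-3p with the −30 D lens was not stable, since its difference was 0.94 with the printed total signal and 0.64 with undetected arrays at 0.1, neither past the threshold. Arrays at the floor count as unchanged in these fits, which holds for 15 arrays of mmu-miR-219a-5p and 18 of mmu-miR-219a-2-3p. It also holds for the normal and the −30 D cornea array of mmu-miR-338-3p.

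Within a tissue each lens group has 1 array, so that ratios carry the error of the probes and no test. In the LGN the log2 ratio of −30 D to normal was 0.20 ± 0.15 for mmu-miR-219a-5p, 0.53 ± 0.16 for mmu-miR-219a-2-3p and 0.45 ± 0.18 for mmu-miR-338-3p. In the SCN the same ratios were −0.77 ± 0.17, −0.76 ± 0.21 and −0.43 ± 0.18, in the opposite direction. Over all miRNAs detected on both arrays, the SD of this ratio was 0.45 in the LGN and 0.38 in the SCN. With the 0 D lens the LGN ratios were 0.45 ± 0.15, 0.38 ± 0.16 and 0.62 ± 0.18, and those of the SCN were −0.01 ± 0.16, −0.08 ± 0.19 and 0.15 ± 0.18. In the LGN the 0 D ratio was above the −30 D ratio for mmu-miR-219a-5p and mmu-miR-338-3p and below it for mmu-miR-219a-2-3p. All 6 ratios of the LGN were above 0, where the normal array was the lowest for each of the 3 members. The median over all miRNAs detected on both arrays was 0.14 with the −30 D and 0.03 with the 0 D lens in the LGN. In the SCN it was −0.06 and −0.18.

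In the retina the ratio of −30 D to normal was −0.32 ± 0.25 for mmu-miR-219a-5p and −0.19 ± 0.19 for mmu-miR-338-3p, beside a median of −0.22 over the 222 miRNAs detected on both retina arrays. mmu-miR-338-3p was −0.59 ± 0.21 in the iris, 0.02 ± 0.19 in the RPE/choroid and 0.26 ± 0.57 in the lens. In the sclera it was −0.90 ± 0.23 with the −30 D and −0.09 ± 0.21 with the 0 D lens, and −0.79 and 0.09 when both probes were summed. The SD of all miRNAs detected on both sclera arrays was 0.68 with the −30 D and 0.57 with the 0 D lens, and their medians were −0.18 and 0.13. The retinal sum of miR-183, miR-96 and miR-182 in the sclera was 1094 in the normal group, lower with both lenses (441 with 0 D and 524 with −30 D), and its part in the values of mmu-miR-338-3p was not tested.

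**Figure D5:**
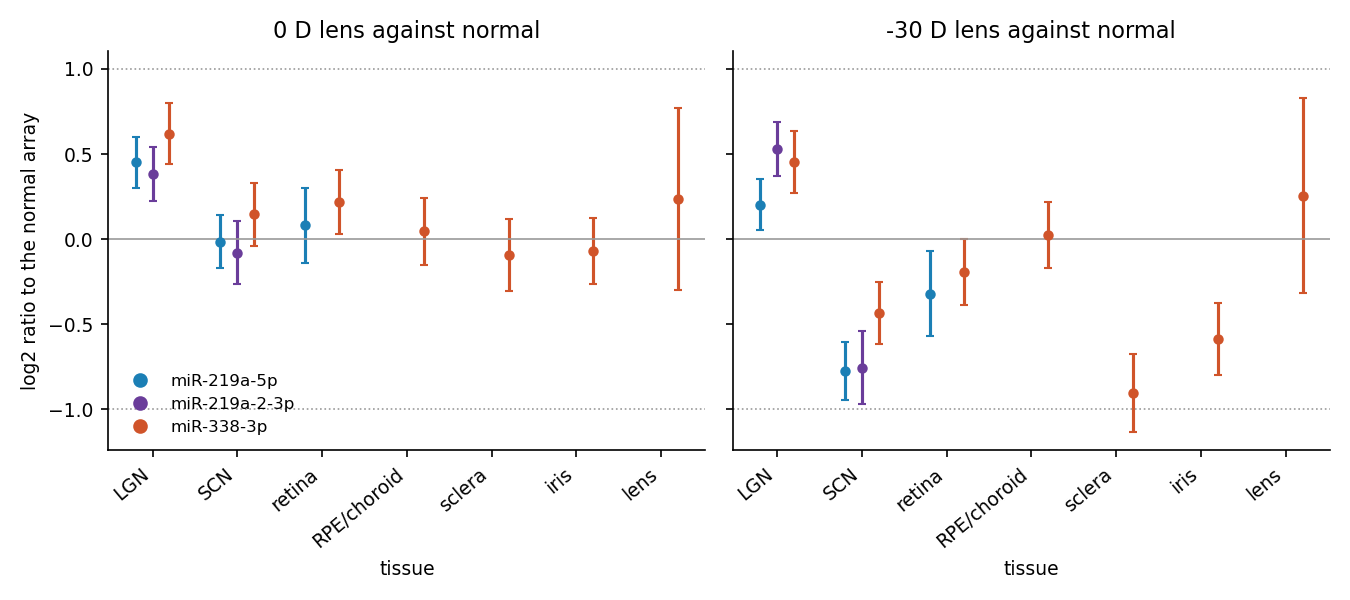
Log2 ratio to the normal array of the same tissue (y axis) for the members detected on both arrays, by tissue (x axis), for the 0 D lens (left) and the −30 D lens (right), with the error of the probes. Dotted lines mark a ratio of 2 and of 0.5. No point passes a dotted line, and with the −30 D lens the LGN points are above and the SCN points below 0.

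By the criteria of the study (a ratio over 2 or under 0.5 with detection on both arrays, or over 5 or under 0.2 with detection on 1 array), and with the undetected array set to 0.1, a value chosen here, mmu-miR-338-3p was higher in the cornea with both lenses, the 1 member detected there. In the cornea 29.1% of detected miRNAs met the criteria upwards with the −30 D and 14.6% with the 0 D lens. The limit of the normal cornea array was 24.6 over both probes, whereas the lens signals of 11.0 and 8.89 came from 1 probe. Both probes summed gave 10.2 in the normal, 15.3 in the 0 D and 12.1 in the −30 D cornea. These sums were below that limit, so that no fold can be given. With the undetected array at its lowest detected signal neither ratio met the criteria. In the other 7 tissues 0 of 12 pairs of member and tissue met the criteria with either lens, while 15.4% of all such pairs did with the −30 D and 15.1% with the 0 D lens. For the −30 D lens the paper itself lists mmu-miR-338-3p as upregulated in the cornea and downregulated in the sclera. With the scaling used here the log2 ratio in that sclera was −0.90, short of the criteria. The source of this difference from the paper was not tested. The log2 ratio of mmu-miR-338-3p in the −30 D sclera passed downwards without scaling (−1.05) and after quantile normalization (−1.31), and that in the 0 D SCN upwards without scaling (1.03). With the printed total signal it passed upwards in the 0 D sclera (1.095), the −30 D iris (1.51) and the −30 D lens tissue (2.57).

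Of 7 other listed miRNAs known from oligodendrocytes, mmu-miR-138-5p, mmu-miR-23a-3p, mmu-miR-27a-3p and mmu-miR-145a-5p were tested, and the other 3 were never detected. In LGN and SCN against retina 3 of the 4 were called higher and none lower, beside the 29.8% of all tested miRNAs that were higher. In LGN against SCN 0 of 4 were called in either direction by limma, with 34.9% of all tested miRNAs. mmu-miR-145a-5p was undetected on every LGN, SCN and retina array, so that it could not be called in either comparison. Against the non-neural ocular tissues 1 was higher and 3 lower, with 35.8% and 34.9% of all tested miRNAs. mmu-miR-138-5p, which acts early in oligodendrocyte maturation and is also abundant in neurons, was detected on the same 9 arrays of LGN, SCN and retina as mmu-miR-219a-5p, with scaled signals of 28.6 to 36.8 in the LGN, 28.1 to 37.8 in the SCN and 3.48 to 4.99 in the retina. The LGN and SCN ranges overlapped for mmu-miR-138-5p, with a log2 difference of −0.04 ± 0.08 (95% interval −0.22 to 0.14).

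Among the 256 other miRNAs detected on at least 8 arrays, those most like mmu-miR-219a-5p over the 24 arrays were mmu-miR-128-3p (Pearson r = 0.95), mmu-miR-138-5p (r = 0.95) and mmu-miR-330-3p (r = 0.91). Those most like mmu-miR-338-3p were mmu-miR-128-3p (r = 0.91), mmu-miR-138-5p (r = 0.88) and mmu-miR-434-3p (r = 0.87). These r describe floored log2 levels over 8 tissues, in which most arrays of a tissue lie together and undetected arrays share the floor. mmu-miR-128-3p, a miRNA of neurons, had mean scaled signals of 1037 in the LGN, 634 in the SCN and 79.4 in the retina, while mmu-miR-330-3p and mmu-miR-434-3p were higher in the SCN (67.6 and 585) than in the LGN (46.4 and 314).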

How the data were processed

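Total RNA of each sample, 100 ng per array, was labelled with Cy3 and hybridized to Agilent mouse miRNA arrays. The authors digitized the scans with Agilent Feature Extraction 10.7.1.1, and the deposited scanner files hold intensity values per spot and per probe, background-subtracted by that software, with an error for each probe. Of the members, mmu-miR-338-5p has 4 probes and the other 3 miRNAs have 2 each, all in replicate spots. The deposited total signal per miRNA was not used as the main value, because for mmu-miR-338-3p it exceeded the sum of the probes above the limit 2.30- to 26.2-fold on the 8 arrays where only 1 probe passed, and equalled it on the other 15. The series table was left out (24 columns), since the letter naming a group has more than 1 reading.

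The probes above 3 errors were summed and scaled to the 75th percentile of the 79 miRNAs detected on all 24 arrays (log2 factors −1.01 to 1.65), and no spot was saturated. The limma fit (version 3.58.1, R 4.3.3) used Benjamini-Hochberg adjustment at 0.05. Tested on simulated data of 352 miRNAs, it recovered 100 of 100 changed miRNAs, with 2 false calls. The changed miRNAs had a median log2 difference of 2.01, and the values were drawn from normal distributions without a floor or undetected arrays. The simulation therefore does not cover smaller differences or miRNAs at the floor. Lower bounds set the undetected side at the sum of 3 errors of each probe, the summed probe signals or the lowest detected signal of the array, whichever was highest. The numbers of arrays and their brightness limit the precision. The named miRNAs were the members, their hairpin relatives, listed miRNAs of oligodendrocytes and of other cell types, and the 3 most alike by Pearson r for each member detected on at least 8 arrays; mmu-miR-34a-5p, mmu-miR-3065-5p and the ratios between members were added after their values were seen. The members and the lists were chosen with earlier results of these data known. Sequences are from RefSeq, GRCm38.p6. Alternatives are given in the closing section.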

Additional observations from a re-analysis of the deposited data

Results flagged for a closer look

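The ratio of −30 D to normal went in opposite directions in different tissues, by more than 2 errors of the probes on both sides, for 2 members. For mmu-miR-219a-2-3p the log2 ratio was 0.53 in the LGN and −0.76 in the SCN. For mmu-miR-338-3p it was 0.45 in the LGN and −0.43 in the SCN, −0.90 in the sclera and −0.59 in the iris. The SD of this ratio over all miRNAs detected on both arrays was 0.45 in the LGN, 0.38 in the SCN, 0.68 in the sclera and 0.46 in the iris. These SDs are larger than the errors of the probes. With 1 array for each tissue and lens group, the difference between tissues was not tested.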

How the results depend on the processing

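The calls of the 3 tested members in LGN and SCN against retina and against non-neural ocular tissues kept their direction and their side of the threshold under all 14 or 15 alternatives run for each member, the differences of mmu-miR-219a-5p against the retina ranging from 1.90 to 2.91 those of mmu-miR-338-3p from 2.21 to 2.75 and those of mmu-miR-219a-2-3p from 1.48 to 9.27. Both lens comparisons called 0 members under every alternative. In LGN against SCN the number of members called was 0 with these tissues alone, and mmu-miR-338-3p was lost with the printed total signal and with undetected miRNAs at 0.1. For the retina against cornea, iris, lens and RPE/choroid, 2 members were called in the main setting, 1 with normexp (mmu-miR-219a-2-3p, lower, −0.88), 1 with quantile normalization (mmu-miR-338-3p), 1 with undetected miRNAs at 0.1 (mmu-miR-219a-5p) and 0 with the printed total signal. mmu-miR-219a-5p was then at −0.17 with normexp and mmu-miR-338-3p at −0.31 with the printed signal. For the sclera against the retina, 2 members were called, but 1 with normexp (mmu-miR-219a-2-3p, higher, 0.63), 1 with the compared tissues alone and 1 with undetected miRNAs at 0.1 (mmu-miR-219a-5p in both), 0 with quantile normalization and 0 with the printed signal (mmu-miR-338-3p at 0.14), and 1 to 2 without 1 lens group. For the sclera against the RPE/choroid, 1 member was called, but 0 with the printed signal (0.31), with no lens group term, with the compared tissues alone, with undetected miRNAs at 0.1 or at the lowest signal of the array and with all probes summed (chosen after seeing the data), 2 with normexp, where mmu-miR-219a-5p and mmu-miR-219a-2-3p were called higher, and 0 to 1 without 1 lens group. Normexp calls of a member that no array of the compared tissues detected rest on background signals and measure no level of that member. Within tissues 2 ratios met the criteria in the main setting, 4 without scaling, 3 with quantile normalization, 5 with the printed signal and 0 with undetected miRNAs at the lowest signal of the array.

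Over all miRNAs, LGN against SCN had 24 higher and 99 lower calls, 52 and 71 without scaling and 41 and 46 with quantile normalization, 76 calls with these tissues alone and 275 with normexp. Without scaling the split was 95 and 101 for the brain against the retina (105 and 66), 150 and 71 for the retina against the 4 ocular tissues (96 and 102), 82 and 139 for the sclera against the retina (94 and 102) and 21 and 102 for the sclera against the RPE/choroid (43 and 35, and 29 and 43 with quantile normalization). With the sclera against the RPE/choroid, 10 miRNAs were called with these tissues alone, 36 with the printed signal, 50 without the 0 D slide and 207 with normexp. Normexp called 319 for the retina against the 4 ocular tissues and 298 for the sclera against the retina, where undetected miRNAs at the lowest signal gave 305. With the 0 D lens against normal, 2 miRNAs were called and 15 without scaling, where the median of all miRNAs moved by 0.12. The causes were not tested. Scaling to the percentile over all miRNAs was not run, because that percentile was below 0 on some arrays (−0.275 to 3.20). The labels carry no replicate numbers, and the lens group term is the block by slide. Signals near 3 errors, as in lens and cornea, gave limits for mmu-miR-219a-5p that exceeded (lens) or overlapped (cornea) its retina signals.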
